A study of Rattus norvegicus with 12 samples.

Results

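The nuclear receptors of rat hepatocytes and the coregulators that work with them were followed through exposure to triclosan and to a pair of related diphenyl ethers. The set was a list of 39 genes, nuclear receptors and coregulators, chosen by name with earlier results of these data known. Of these, 34 had at least 1 array probe whose RefSeq transcript belongs to the gene, and 30 gave a signal high enough to be tested, out of 20344 genes or transcripts tested on the arrays. No probe was named for Rora, Hnf4g, Nr6a1, Ncoa1 or Ncoa3.

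Cryopreserved hepatocytes of male Sprague Dawley rats had a pre-culture of 24 h. They then received DMSO as the vehicle control or 1 of 3 chemicals at 30 µM, and RNA was taken 24 h later. The chemicals were triclosan, its relative diclosan, and 1-chloro-3-(4-chlorophenoxy) benzene, called CCPB below. Each of the 4 groups has 3 one-colour Agilent arrays, and the title of the series places the work in a read-across case study of triclosan and chemicals of like structure. All of the groups share the cell type, the strain, the sex, the culture and the time. The labels call the replicates independent experiments without saying whether different rats or lots of cells were used, so a p-value here measures the spread between these arrays. Triclosan is a chlorinated diphenyl ether with a phenolic hydroxyl group, diclosan has the hydroxyl and a chlorine fewer, and CCPB has no hydroxyl and, compared with diclosan, carries a ring chlorine at another position.

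Nuclear receptors are transcription factors that carry a DNA-binding domain and, in most members, a pocket for a small lipophilic ligand such as a steroid, a bile acid, a fatty acid, a retinoid or a drug. Many of those in liver bind DNA as a heterodimer with a retinoid X receptor. Ligand binding exchanges corepressors such as Ncor1 for coactivators such as the Ncoa proteins. The receptors CAR (gene Nr1i3) and PXR (gene Nr1i2) are the liver's main sensors of foreign chemicals, and hepatocytes in culture are known to lose part of their CAR expression. The arrays measure the RNA of a receptor, not its protein, its place in the cell or its activity.

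Upstream sequences are shown for the 3 receptors whose RNA differed between CCPB and diclosan also within the model that holds the slide. They are also shown for the retinoic acid receptors Rara and Rarg, which were lower with CCPB in the model without the slide. Each is the 250 bases before the transcription start in the RefSeq table of build GRCr8, which held an entry for 31 of the 39 genes. Nr1i3 lies at chr13:86165170-86165419 (plus strand), Nr1i2 at chr11:75965467-75965716 (plus), Nr1h3 at chr3:97623230-97623479 (minus), Rara at chr10:84411217-84411466 (plus) and Rarg at chr7:135268890-135269139 (minus). Sequences run 5′ to 3′ on the gene's strand, and capitals mark AGGTCA (the core motif that many nuclear receptors bind), AGTTCA (a form of it found in elements of PXR and CAR) or GGGCGG (a GC box), searched on both strands.
Nr1i3: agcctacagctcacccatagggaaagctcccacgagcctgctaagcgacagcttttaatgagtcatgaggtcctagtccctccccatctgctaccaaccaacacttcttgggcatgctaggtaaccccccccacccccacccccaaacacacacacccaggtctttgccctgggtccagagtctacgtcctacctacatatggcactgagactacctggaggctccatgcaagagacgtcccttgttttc
Nr1i2: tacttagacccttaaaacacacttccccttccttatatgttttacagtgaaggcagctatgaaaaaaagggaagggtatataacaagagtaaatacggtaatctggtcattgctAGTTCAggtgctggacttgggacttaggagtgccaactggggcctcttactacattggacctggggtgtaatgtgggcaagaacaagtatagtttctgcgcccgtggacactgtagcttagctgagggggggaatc
Nr1h3: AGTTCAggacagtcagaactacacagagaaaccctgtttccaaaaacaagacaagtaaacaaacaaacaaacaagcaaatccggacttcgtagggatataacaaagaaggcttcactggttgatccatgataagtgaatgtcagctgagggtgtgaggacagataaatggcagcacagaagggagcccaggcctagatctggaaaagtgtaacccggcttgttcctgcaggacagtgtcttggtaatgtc
Rara: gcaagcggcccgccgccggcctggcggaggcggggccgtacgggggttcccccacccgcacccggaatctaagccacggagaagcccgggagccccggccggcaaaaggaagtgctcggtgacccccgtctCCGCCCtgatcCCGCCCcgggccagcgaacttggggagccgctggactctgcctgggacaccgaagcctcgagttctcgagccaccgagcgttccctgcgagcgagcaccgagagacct
Rarg: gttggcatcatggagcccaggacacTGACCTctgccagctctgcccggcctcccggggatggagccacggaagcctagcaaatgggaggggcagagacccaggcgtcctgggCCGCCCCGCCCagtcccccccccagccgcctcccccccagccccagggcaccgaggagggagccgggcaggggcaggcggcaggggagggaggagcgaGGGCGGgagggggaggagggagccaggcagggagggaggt
AGTTCA stood at position -136 of Nr1i2 and at -250 of Nr1h3, counted from the start, and none of these letters was in the Nr1i3 window. Rarg held AGGTCA at position -225. Of the 31 members with an entry, AGGTCA was in 2, AGTTCA in 4 and GGGCGG in 19. The shares over all 33469 promoters of the same length were 14.1%, 12.2% and 30.5%. No entry was found for Nr1h4, Ppard, Hnf4g, Nr2f2, Nr3c2, Nr4a3, Ncoa2 and Ncoa3.

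Signals are given as log2 of the processed intensity minus the array's 75th percentile, so 0 is the level of a bright probe on that array and a difference of 1 is a doubling. Between 51.6% and 55.5% of probes were well above background on an array, and no spot was saturated. The 12 arrays lie on 2 slides: slide 1 holds all DMSO and triclosan arrays and diclosan 1 and 2, while slide 2 holds diclosan 3 and all CCPB arrays. Over all genes, diclosan 3 stood apart from diclosan 1 and 2, with a score on the first principal component of 12.95 against -12.39 and -13.54; the CCPB arrays scored 24.49 to 27.12. Counts for every comparison are therefore given also with the slide as a block, as are the values of many single genes. CCPB shares no slide with DMSO or with triclosan, and there that block rests on the 3 diclosan arrays. The 10 hepatocyte markers were above background on all 12 arrays. So were 3 of 8 macrophage, 4 of 8 stellate cell and fibroblast, 3 of 8 endothelial and 2 of 6 cholangiocyte markers, while Marco, Dcn, Lrat, Lyve1, Pecam1, Cftr, Krt19 and Spp1 were above it on none.

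All 30 tested members were well above background on every one of the 12 arrays. The other 4 with a probe were at or near background: Vdr, the vitamin D receptor, was above it on 4 arrays, Nr2f1 on 7, the estrogen receptor Esr1 on 2, and Nr4a3 on none. These 4 entered no comparison. Receptors for foreign chemicals, bile acids, oxysterols, fatty acids, retinoids and glucocorticoids were thus all measurable in these cultures, as were the corepressors Ncor1 and Nrip1 and the coactivators Ncoa2, Ppargc1a and Ppargc1b.

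CCPB was the only compound with members past the threshold against DMSO, an adjusted p under 0.05 in limma with Benjamini-Hochberg adjustment over all genes tested. Nr1i3, Nr1i2, Nr1h3, Nr1h4, Hnf4a, Rxrg and Ppard rose, and Rara, Rarg, Rxrb, Pparg and Thra fell. These are 12 of 30 members, against 28.3% of all genes called in the same comparison; 7 were higher, against 14.3% of all genes, and 5 lower, against 14.0%. The median difference of the members was -0.077 log2 units against 0.0055 over all genes, and the median size of a difference was 0.17 against 0.13. Groups did not overlap for 19 of the 30 members, against 50.1% of all genes. With the slide as a block, Nr1i3 and Nr1i2 were called, 2 of 30 against 3.46% of all genes; both were higher (1.66% of all genes) and no member was lower (1.79%). Leaving out DMSO 1 reduced the members called from 12 to 7, and the share of all genes called from 28.3% to 18.4%. Each other array of these groups left out gave 10 to 12 members, where 18% to 19.7% of all genes were called.

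**Figure D1:**
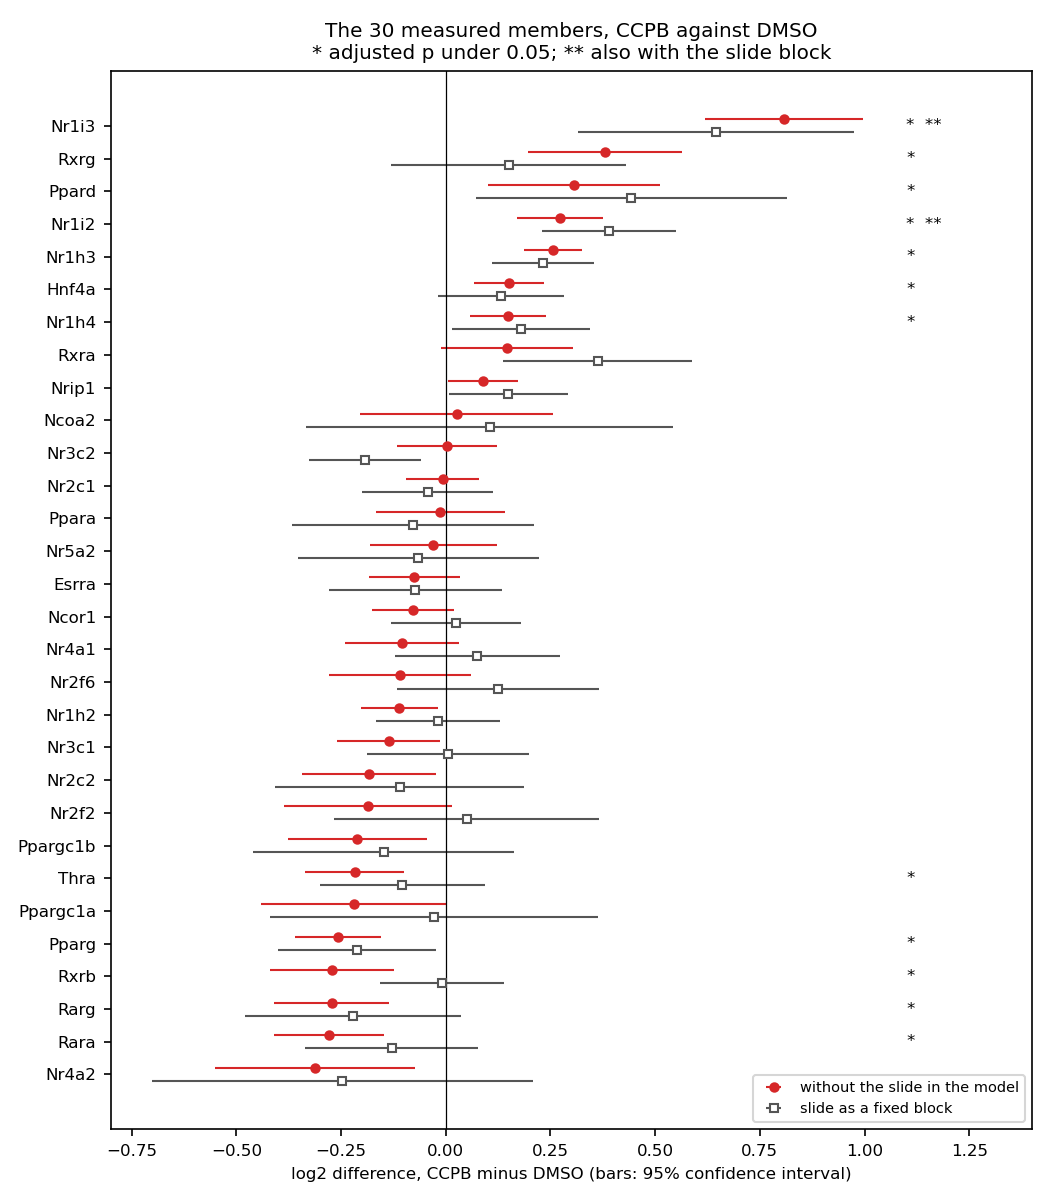
The log2 difference between CCPB and DMSO is plotted on the horizontal axis for each of the 30 tested members, as filled circles without the slide in the model and as open squares with the slide as a block; bars are 95% confidence intervals. Nr1i3 lies farthest to the right in both fits, at 0.81 and 0.65, while the values of Rxrb, Rara, Rxrg and Thra move toward 0 when the slide is held.

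CAR had the largest difference of any member. The Nr1i3 signal was -0.62, -0.36 and -0.63 on the DMSO arrays, -0.16, -0.33 and -0.35 with triclosan, -0.43, -0.35 and -0.23 with diclosan, and 0.20, 0.30 and 0.32 with CCPB. All 3 CCPB arrays lie above all 9 others, and the triclosan arrays lie above the DMSO arrays without reaching the CCPB level. Triclosan and DMSO arrays did not overlap for 19.0% of all genes. Nr1i3 was 1.75-fold higher with CCPB than with DMSO (difference 0.81 log2 units, 95% interval 0.62 to 1.00, limma adjusted p = 0.000200), from -0.54 ± 0.15 to 0.27 ± 0.064 (SD, n = 3 each). With the slide as a block the difference was 0.65 (0.32 to 0.98, adjusted p = 0.0491). A further probe for Nr1i3 gave 0.66 (adjusted p over probes = 8.03e-05) and 0.78 with the slide (adjusted p = 0.00657), so both probes show the rise. In that fit over probes the brighter probe's adjusted p with the slide was 0.0514. The call was lost when the slide and the replicate number were both blocks (0.59, adjusted p = 0.138) and remained in the other 16 alternatives.

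PXR rose by a smaller amount. Nr1i2 stood at 4.48, 4.54 and 4.51 with DMSO, 4.56, 4.54 and 4.55 with triclosan, 4.46, 4.59 and 4.41 with diclosan, and 4.77, 4.82 and 4.76 with CCPB. The CCPB arrays again lie above all others, and diclosan 3, which shares their slide, has the lowest value of the 12. The difference between CCPB and DMSO was 0.27 log2 units (0.17 to 0.38, a 1.21-fold increase, adjusted p = 0.00270). It was 0.39 with the slide as a block (0.23 to 0.55, adjusted p = 0.0238). Centring each array on its median in place of the 75th percentile gave 0.25 and ended the call (adjusted p = 0.0646), as did blocks for slide and replicate number together (0.38, adjusted p = 0.0573).

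The liver X receptor alpha gene Nr1h3, whose product senses oxysterols, had a higher signal with CCPB. It was 4.18, 4.18 and 4.12 with DMSO, 4.19, 4.18 and 4.17 with triclosan, 4.17, 4.20 and 4.21 with diclosan and 4.39, 4.45 and 4.41 with CCPB. The 9 arrays without CCPB span 4.12 to 4.21, and no CCPB array falls in that range. Nr1h3 rose with CCPB by 0.26 log2 units (0.19 to 0.32, 1.19-fold, adjusted p = 0.000462). With the slide the value was nearly the same, 0.23 (0.11 to 0.35), but missed the threshold (adjusted p = 0.0552). Its paralogue Nr1h2, liver X receptor beta, did not pass (-0.11, adjusted p = 0.0690), and the difference between these paralogues was not tested.

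FXR, the bile acid receptor encoded by Nr1h4, read 3.13, 3.15 and 3.13 on DMSO arrays and 3.30, 3.35 and 3.20 on CCPB arrays, with triclosan at 3.15 to 3.19 and diclosan at 3.15 to 3.21. The groups do not overlap between CCPB and DMSO, though CCPB 3 lies just below the highest diclosan array. Nr1h4 rose with CCPB by 0.15 log2 units (0.057 to 0.24, adjusted p = 0.0239), and its other probe by 0.18 (adjusted p = 0.0240). The slide block gave 0.18 with an adjusted p of 0.237. Leaving out DMSO 1, 2 or 3, or CCPB 1 or 2, also ended the call.

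**Figure D2:**
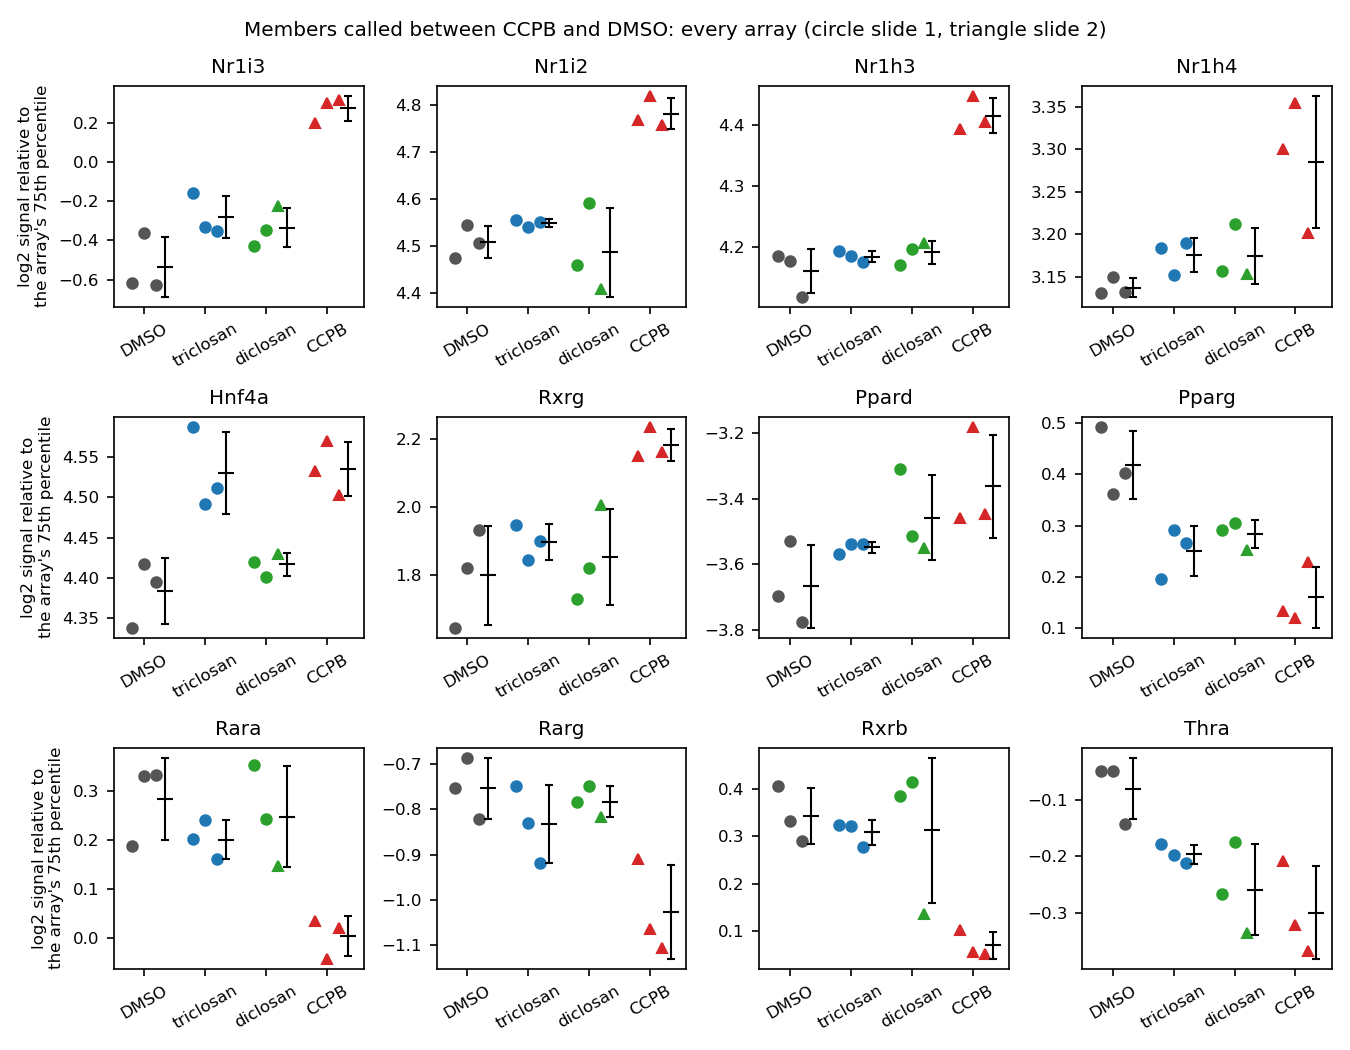
Each panel shows 1 of the 12 members called between CCPB and DMSO, with the log2 signal relative to the array's 75th percentile on the vertical axis, which has its own range in each panel, and the 4 groups along the horizontal axis. Circles are arrays of slide 1, triangles arrays of slide 2, and the black bars give the mean and SD of the 3 arrays; for Nr1i3, Nr1i2 and Nr1h3 the diclosan triangle sits with the other diclosan arrays, while for Rxrb it sits at 0.14, near the CCPB arrays.

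The peroxisome proliferator-activated receptors went in different directions. Ppara, the receptor behind the fatty acid oxidation programme of the liver, read -0.66, -0.69 and -0.62 with DMSO and -0.78, -0.50 and -0.72 with CCPB. The groups overlap, and the difference of -0.013 log2 units (-0.17 to 0.14, adjusted p = 0.908) did not pass. Ppara stood at -0.59, -0.48 and -0.64 with triclosan and -0.80, -0.77 and -0.72 with diclosan.

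Pparg, best known as the receptor of fat cells, was 0.49, 0.36 and 0.40 with DMSO, 0.20, 0.29 and 0.27 with triclosan, 0.29, 0.31 and 0.25 with diclosan and 0.13, 0.12 and 0.23 with CCPB. Every array of the 3 compounds lies below every DMSO array. Over all genes, no overlap with DMSO was seen for 19.0% with triclosan, 16.1% with diclosan and 50.1% with CCPB. These shares are the background for each gene described here by its arrays. The fall passed with CCPB alone, by 0.26 log2 units (adjusted p = 0.00361), and the slide block gave -0.21 (adjusted p = 0.218). Ppard, a receptor expressed in many tissues, read -3.70, -3.53 and -3.78 with DMSO and -3.46, -3.18 and -3.45 with CCPB, a rise of 0.31 (0.10 to 0.51, adjusted p = 0.0330). With the slide it was 0.44 (adjusted p = 0.194). Under normexp background correction the Ppard difference shrank to 0.115 (adjusted p = 0.156). The call was also lost with median centring (adjusted p = 0.118), quantile normalization (0.0621), no filter on dim probes (0.0957), only the 2 groups compared (0.0649), and without DMSO 1, DMSO 3 or CCPB 2.

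Among the retinoid X receptors, the partners of most of the receptors above, Rxrg rose and Rxrb fell with CCPB. Both differences were smaller with the slide as a block. That block rests on the diclosan arrays, where an effect of the slide and a deviation of diclosan 3 alone cannot be told apart. Rxrg read 1.65, 1.82 and 1.93 with DMSO, 1.95, 1.85 and 1.90 with triclosan, 1.73, 1.82 and 2.01 with diclosan and 2.15, 2.23 and 2.16 with CCPB. CCPB arrays lie above the rest, and diclosan 3 is the highest of the others. The difference from DMSO was 0.38 log2 units (0.20 to 0.56, adjusted p = 0.00877), and 0.15 with the slide (-0.13 to 0.43, adjusted p = 0.581).

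Rxrb read 0.41, 0.33 and 0.29 with DMSO, 0.32, 0.32 and 0.28 with triclosan, 0.38, 0.41 and 0.14 with diclosan and 0.10, 0.056 and 0.053 with CCPB. The diclosan array on the CCPB slide is the nearest to the CCPB values. The difference from DMSO of -0.27 (adjusted p = 0.0150) became -0.0094 with the slide (-0.16 to 0.14, adjusted p = 0.961), and another probe for Rxrb gave -0.099 (adjusted p = 0.167). Without DMSO 1 the call was lost.

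Rxra, the main retinoid X receptor of liver, read -0.73, -0.82 and -0.74 with DMSO, -0.63, -0.70 and -0.71 with triclosan, -0.68, -0.74 and -0.93 with diclosan and -0.68, -0.49 and -0.68 with CCPB. The CCPB and DMSO arrays do not overlap, and the difference of 0.15 log2 units (-0.012 to 0.30) did not pass (adjusted p = 0.150). With the slide it was 0.36 (0.14 to 0.59, adjusted p = 0.0919).

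The retinoic acid receptors Rara and Rarg and the thyroid hormone receptor Thra, which all pair with retinoid X receptors, were lower with CCPB. Rara read 0.19, 0.33 and 0.33 with DMSO, 0.20, 0.24 and 0.16 with triclosan, 0.35, 0.24 and 0.15 with diclosan and 0.035, -0.042 and 0.021 with CCPB. The CCPB arrays form the lowest group, and the other groups overlap one another. Rara fell with CCPB by 0.28 log2 units (interval -0.41 to -0.15, adjusted p = 0.00771).

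Rarg read -0.75, -0.69 and -0.82 with DMSO and -0.91, -1.06 and -1.11 with CCPB, a fall by 0.27 (interval -0.41 to -0.13, adjusted p = 0.0110). Triclosan arrays reached from -0.75 to -0.92, which overlaps the CCPB range, and diclosan arrays from -0.75 to -0.82. Thra read -0.050, -0.049 and -0.14 with DMSO, -0.18, -0.20 and -0.21 with triclosan, -0.27, -0.17 and -0.33 with diclosan and -0.21, -0.32 and -0.37 with CCPB. All compound arrays of Thra lie below all DMSO arrays, and the fall passed with CCPB alone, by 0.22 (adjusted p = 0.0148; second probe -0.23, adjusted p = 0.0216). With the slide none of these was called: Rara was -0.13 (adjusted p = 0.513), Rarg -0.22 (0.351) and Thra -0.10 (0.589). The Rara call was also lost by median centring (adjusted p = 0.0505), and the Thra call without DMSO 1, DMSO 2 or CCPB 3.

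Upstream of their starts, the members that fell were richer in G and C than those that rose, as a description of these windows. The groups are those called without the slide in the model. With the slide as a block, only Nr1i3 and Nr1i2 were called, both higher. All 5 that fell had an entry, with 67.2% to 79.6% G and C (median 74.0%), and each held GGGCGG. Of the 7 that rose, 5 had an entry, with 45.2% to 60.8% (median 52.4%), and GGGCGG was in 1, Hnf4a. The 15 tested members with an entry that were not called spanned 44.4% to 82.8% (median 68.8%), 9 of them with GGGCGG, and the median over all promoters was 51.2%.

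Hnf4a, a receptor that maintains the hepatocyte programme, read 4.34, 4.42 and 4.40 with DMSO, 4.59, 4.49 and 4.51 with triclosan, 4.42, 4.40 and 4.43 with diclosan and 4.53, 4.57 and 4.50 with CCPB. Triclosan and CCPB arrays overlap each other and lie above the DMSO and diclosan arrays. The difference from DMSO passed for CCPB (0.15 log2 units, 0.069 to 0.23, adjusted p = 0.0151) and not for triclosan (0.15, 0.064 to 0.23, adjusted p = 0.184). Fewer genes are called between triclosan and DMSO, so a like difference carries a larger adjusted p there. Further Hnf4a probes gave 0.032 and 0.072 between CCPB and DMSO (adjusted p = 0.732 and 0.636), and the slide block gave 0.13 (adjusted p = 0.341). The Hnf4a call was also lost under normexp background correction (0.067, adjusted p = 0.259) and without DMSO 1 or CCPB 2.

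The remaining receptors did not pass between CCPB and DMSO. The glucocorticoid receptor gene Nr3c1, whose ligand dexamethasone is a common addition to hepatocyte media, read 1.96, 1.94 and 1.89 with DMSO, 1.92, 1.95 and 1.91 with triclosan, 1.88, 1.99 and 1.80 with diclosan and 1.71, 1.80 and 1.87 with CCPB. CCPB arrays were the lowest group against DMSO without overlap, with a difference of -0.14 log2 units (adjusted p = 0.0908). Its other probes gave 0.32 (adjusted p = 0.0783) and -0.0081 (adjusted p = 0.943), so the 3 probes disagree in direction and none passed. With the slide the Nr3c1 difference was 0.0048 (-0.19 to 0.20, adjusted p = 0.986).

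Nr2c2, the orphan receptor also called TR4, read -2.12, -2.25 and -2.03 with DMSO, -2.05, -2.01 and -2.01 with triclosan, -2.14, -2.00 and -2.14 with diclosan and -2.35, -2.19 and -2.41 with CCPB. The CCPB and DMSO arrays overlap, and the difference was -0.18 (adjusted p = 0.0819; -0.11 with the slide, adjusted p = 0.721). The immediate-early receptor Nr4a2 had -0.31 (-0.55 to -0.074, adjusted p = 0.0528) and its relative Nr4a1 -0.10 (adjusted p = 0.220). Nr2c1, Nr2f2, Nr2f6, Nr3c2, Esrra and Nr5a2 lay between -0.19 and 0.0035, with adjusted p of 0.146 to 0.968. With the slide, Nr4a2 was at -0.25 (adjusted p = 0.577), Nr4a1 at 0.075, and the others between -0.19 (Nr3c2, adjusted p = 0.122) and 0.12 (Nr2f6, adjusted p = 0.597).

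No coregulator among the members passed between CCPB and DMSO. Ppargc1a, a coactivator of mitochondrial and gluconeogenic genes, read -2.25, -2.14 and -2.28 with DMSO, -2.37, -2.30 and -2.37 with triclosan, -2.63, -2.23 and -2.62 with diclosan and -2.55, -2.39 and -2.38 with CCPB. CCPB and triclosan arrays lie below all DMSO arrays, while diclosan 2 lies among them. The difference was -0.22 log2 units between CCPB and DMSO (-0.44 to 0.0040, adjusted p = 0.127), and -0.029 with the slide (adjusted p = 0.955). Its relative Ppargc1b had -0.21 (adjusted p = 0.0580), and -0.15 with the slide (adjusted p = 0.630).

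Nrip1, a corepressor with roles in liver metabolism, read 1.26, 1.29 and 1.21 with DMSO, 1.30, 1.28 and 1.32 with triclosan, 1.22, 1.25 and 1.17 with diclosan and 1.29, 1.35 and 1.38 with CCPB. CCPB arrays lie just above the DMSO arrays, with a difference of 0.089 (0.0065 to 0.17, adjusted p = 0.0978). Ncor1, the corepressor of unliganded thyroid and retinoic acid receptors, read 1.13, 1.16 and 1.02 with DMSO, 1.01, 1.01 and 1.04 with triclosan, 1.08, 1.07 and 0.97 with diclosan and 1.00, 1.03 and 1.05 with CCPB. The Ncor1 groups overlap (-0.079, adjusted p = 0.201), and its 5 probes gave differences of -0.24 to 0.17, none called. With the slide Ncor1 stood at 0.024 (adjusted p = 0.899) and Nrip1 at 0.15 (adjusted p = 0.252). The coactivator Ncoa2 had a difference of 0.026 (-0.20 to 0.26, adjusted p = 0.871).

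**Figure D3:**
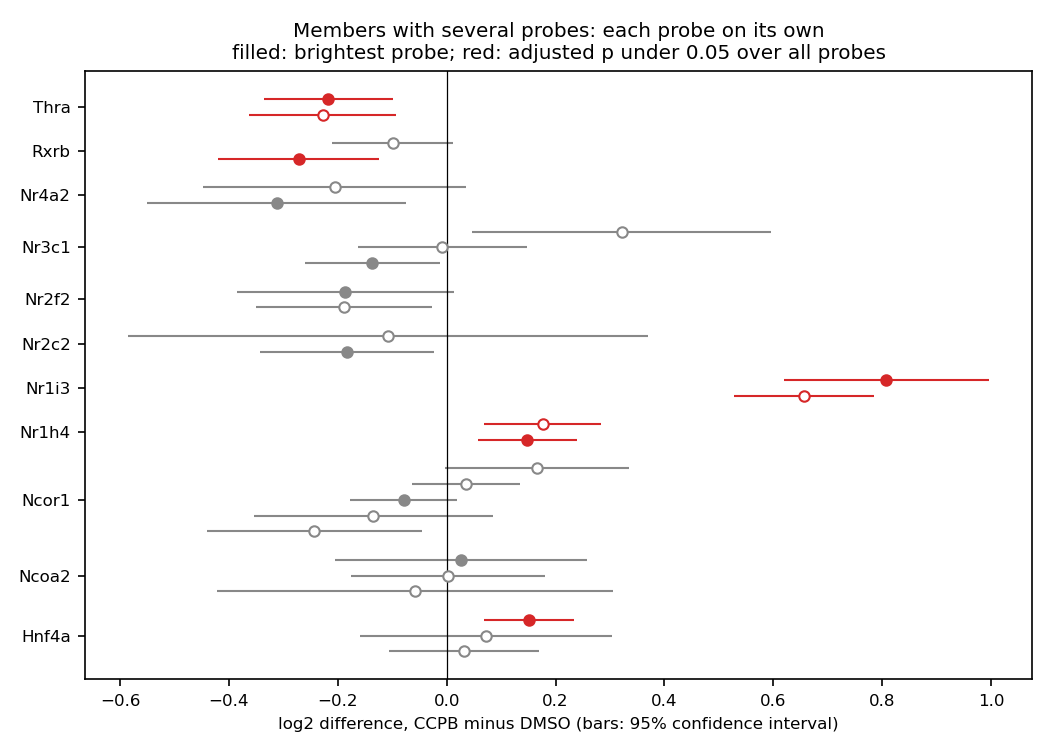
Members with several probes are listed on the vertical axis, with 1 circle for each probe at its log2 difference between CCPB and DMSO and bars for the 95% confidence interval; filled circles are the brightest probe, used elsewhere, and red marks an adjusted p under 0.05 over all probes. Both probes of Nr1i3, Nr1h4 and Thra pass and agree in sign, only 1 probe of Hnf4a and of Rxrb passes, and the probes of Nr3c1 and Ncor1 lie on both sides of 0.

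Triclosan against DMSO gave no member past the threshold, 0 of 30 by limma, where 0.0639% of all genes were called, and 0 of 30 with the slide as a block (0.226%). At an unadjusted p under 0.05 there were 4 members, against 11.6% of all genes. They were Hnf4a (0.15), Pparg (-0.17, -0.27 to -0.065, adjusted p = 0.221), Nr1i3 (0.25, 0.066 to 0.44, adjusted p = 0.294) and Nr1h2 (-0.098, adjusted p = 0.405). The differences of the members ran from -0.17 to 0.25 log2 units, with a median of -0.020 against -0.0056 over all genes. Over the members the 95% intervals reached from -0.35 to 0.44, and 26 of the 30 held 0. Groups did not overlap for 8 of the 30 members, against 19.0% of all genes.

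Diclosan against DMSO likewise gave 0 of 30 (0.00983% of all genes), and 0 of 30 with the slide (0.0147%). At an unadjusted p under 0.05 there were 5 members, against 10.6% of all genes. They were Thra (-0.18, -0.30 to -0.059, adjusted p = 0.317), Pparg (-0.13, adjusted p = 0.372), Ppargc1a (-0.27, adjusted p = 0.391), Nr1i3 (0.20, 0.012 to 0.39, adjusted p = 0.444) and Ppard (0.21, adjusted p = 0.461). The intervals over the members reached from -0.49 to 0.41, and 25 of 30 held 0. No overlap was seen for 4 of 30 members, against 16.1% of all genes. Leaving out diclosan 3, the array on the other slide, also left 0 members called. Intervals of this width do not show that the receptors were unaffected by either compound.

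**Figure D4:**
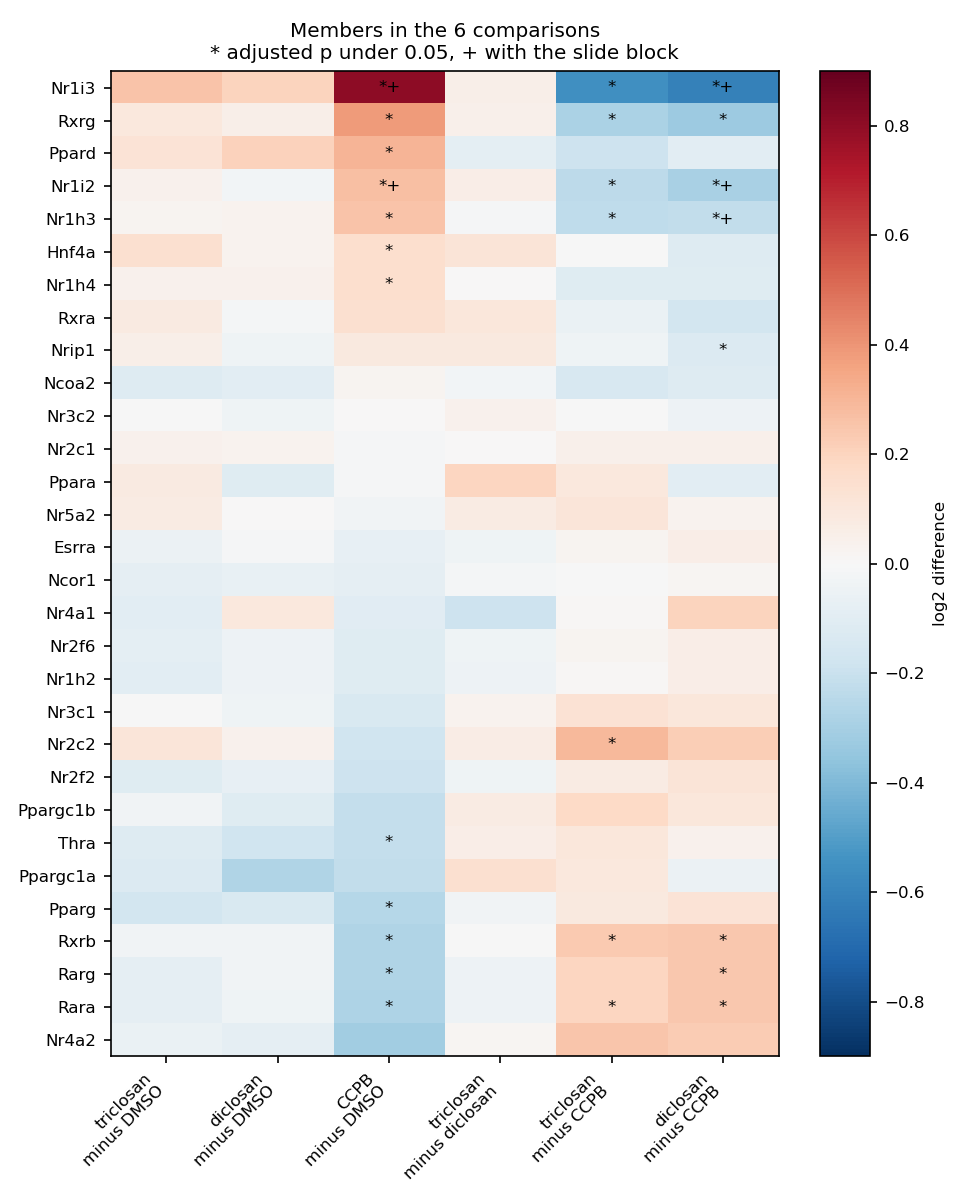
Colour gives the log2 difference of each of the 30 tested members (vertical axis) in each of the 6 comparisons (horizontal axis), red for higher in the first-named group and blue for lower; a star marks an adjusted p under 0.05 and a plus sign the same with the slide as a block. Stars occur in the 3 columns that involve CCPB, 12, 7 and 8 of them, and plus signs in the column against DMSO for Nr1i3 and Nr1i2 and in the column against diclosan for Nr1i3, Nr1i2 and Nr1h3.

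The compounds themselves were compared in 3 pairs, at the same dose and time. Triclosan and diclosan, which differ by a chlorine, gave 0 of 30 members called by limma, where 0.0% of all genes passed, and 0 of 30 with the slide as a block (0.00492%). At an unadjusted p under 0.05 there were 4 members, against 6.83% of all genes. They were Nr4a1 (-0.19, adjusted p = 0.601), Hnf4a (0.11, 0.031 to 0.20, adjusted p = 0.614), Ppara (0.19, 0.036 to 0.35, adjusted p = 0.654) and Nrip1 (0.088, adjusted p = 0.705). The arrays of these 4 genes, which their p picked out, do not overlap between triclosan and diclosan; no overlap was seen for 4 of 30 members and for 9.94% of all genes. Over the members the 95% intervals of the difference reached from -0.32 to 0.37 log2 units. A difference of that size in a receptor's RNA would therefore not have been resolved for every member.

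Between triclosan and CCPB, which differ in the hydroxyl and in chlorines, 7 of 30 members were called, against 20.5% of all genes. These groups share no slide, so compound and slide cannot be told apart without the diclosan arrays, on which the slide block rests. Nr1i3 (-0.55 log2 units, -0.74 to -0.36, adjusted p = 0.00271), Nr1h3 (-0.23, -0.30 to -0.16, adjusted p = 0.00144), Nr1i2 (-0.23, -0.34 to -0.13, adjusted p = 0.00905) and Rxrg (-0.28, adjusted p = 0.0375) were lower with triclosan. Nr2c2 (0.29, adjusted p = 0.0213), Rxrb (0.24, adjusted p = 0.0332) and Rara (0.20, adjusted p = 0.0417) were higher. With p-values adjusted over all 3 pairs, Nr1i3, Nr1h3, Nr1i2 and Nr2c2 remained, 4 of 30 against 14.8% of all genes. With the slide as a block 0 of 30 were called, against 1.41% of all genes. Nr1i2 stood at -0.35 (limma adjusted p = 0.0543), Nr1h3 at -0.21 (0.111) and Nr1i3 at -0.39 (0.247). Nr2c2 stood at 0.22 (0.481), Rara at 0.046 (0.858) and Rxrg at -0.053 (0.883), and Rxrb changed sign (-0.025, adjusted p = 0.899). The other probe of Nr2c2 gave 0.15 without the slide (adjusted p over probes = 0.657). The Nr2c2 call was also lost with normexp background correction (adjusted p = 0.0530), median centring (0.0606) and the mean of probes (0.190). It was lost too without triclosan 2, triclosan 3, CCPB 1 or CCPB 3. Leaving out any 1 of triclosan 1, 2 or 3 or CCPB 1, 2 or 3 kept 3 or 4 of the 7 calls, with Nr1i3, Nr1i2 and Nr1h3 called each time. The share of all genes called was then 10.4% to 14.2%.

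Between diclosan and CCPB, which differ in the hydroxyl and in the position of a chlorine, 8 of 30 members were called, against 14.4% of all genes. Nr1i3 was 1.52-fold lower with diclosan (-0.61 log2 units, -0.80 to -0.42, adjusted p = 0.00162), Nr1i2 1.23-fold lower (-0.30, -0.40 to -0.19, adjusted p = 0.00303) and Nr1h3 1.17-fold lower (-0.22, -0.29 to -0.15, adjusted p = 0.00160). Rxrg (-0.33, adjusted p = 0.0262) and Nrip1 (-0.13, adjusted p = 0.0484) were also lower, and Rara (0.24, adjusted p = 0.0224), Rarg (0.24, adjusted p = 0.0279) and Rxrb (0.24, adjusted p = 0.0385) were higher. Adjusted over all 3 pairs, Nr1h3, Nr1i3, Nr1i2, Rara, Rxrg and Rarg remained, 6 of 30 against 12.1% of all genes. With the slide as a block, Rxrg stood at -0.17, Nrip1 at -0.17, Rara at 0.14, Rarg at 0.21 and Rxrb at 0.066.

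Among the pairs with CCPB, only diclosan and CCPB share a slide, and here Nr1i2, Nr1h3 and Nr1i3 passed with the slide as a block. That difference is diclosan 3 alone against the 3 CCPB arrays, tested against the spread of all groups. They are 3 of 30, against 4.94% of all genes, and all 3 were lower with diclosan, against 2.44%. Nr1i2 differed by -0.37 log2 units (-0.50 to -0.25, adjusted p = 0.00810), Nr1h3 by -0.21 (-0.30 to -0.11, adjusted p = 0.0272) and Nr1i3 by -0.50 (-0.76 to -0.24, adjusted p = 0.0416). A fit of these 4 arrays of slide 2 by themselves is the same comparison, with the same differences by construction. It holds 1 diclosan array and fewer arrays for the spread, so its calls decide nothing about the members. Leaving out diclosan 1 or 2, or CCPB 2 or 3, kept 3 of the 8 calls, Nr1i3, Nr1i2 and Nr1h3. A further member was called without CCPB 2 and without CCPB 3. The share of all genes called in these settings was 8.12% to 9.16%. Leaving out diclosan 3 kept 7 of the 8, with Nrip1 lost and 1 other member called, where 26.8% of all genes were called. Without diclosan 3 these groups share no slide, so compound and slide cannot be told apart in that fit.

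The other genes of the receptor pathways came from lists chosen with earlier results of these data known. Between CCPB and DMSO, 13 of 20 tested targets of CAR and PXR rose and 0 fell, 8 of them also with the slide as a block, and their median difference was 0.33 log2 units, where the median of all genes was 0.0055. Over all genes 14.3% rose and 14.0% fell with CCPB, and 1.66% and 1.79% with the slide, which is the background for the counts of every list here. Cyp2b2, the classic CAR-induced cytochrome P450, read -0.97, -1.03 and -1.28 with DMSO, -0.22, -0.77 and -0.68 with triclosan, -0.37, -0.89 and -0.78 with diclosan and 0.79, 0.78 and 0.64 with CCPB. Every compound array lies above every DMSO array, and the CCPB arrays stand well above the others. Cyp2b2 rose 3.56-fold with CCPB (adjusted p = 8.67e-05; 1.98 log2 units with the slide, adjusted p = 0.0135). Its difference was 0.54 with triclosan (adjusted p = 0.258) and 0.41 with diclosan (adjusted p = 0.418). The P450 genes Cyp2c6v1 (0.92) and Cyp2c7 (0.51) also rose with CCPB.

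Among targets of the peroxisome proliferator-activated receptors, 10 of 23 rose and 1 fell with CCPB, 8 and 0 with the slide, with a median of 0.14 log2 units; the RNA of Ppara itself did not pass. They included Pdk4, a kinase that restrains glucose oxidation (1.11 log2 units), and the carnitine palmitoyltransferases Cpt2 (0.37) and Cpt1a (0.44). Of 8 targets of FXR, 4 rose with CCPB, 4 also with the slide (median 0.17), among them the bile salt export pump Abcb11 (0.45) and the bile acid uptake carrier Slc10a1 (0.53). None of the lists was split into genes that a receptor raises and genes that it lowers. Their counts and medians therefore do not read a receptor's activity. Of 10 targets of the liver X receptors, 3 rose and 0 fell, none with the slide (median 0.15); they were Nr1h3 itself, Abcg5 (0.98) and Smpdl3a (0.21). Of 12 targets of HNF4A and Nr5a2, 4 rose, among them Apob (0.37), Mttp (0.32) and Cyp2c7, and 3 with the slide (median 0.074).

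Retinoid, vitamin D and thyroid hormone targets moved in both directions with CCPB. Of 11 tested, 3 rose (2 with the slide), with Klf9 at 0.29 log2 units, and 1 fell; the median was 0.11. Rarb, a retinoic acid receptor that is itself induced by retinoic acid, rose by 0.37 (adjusted p = 0.000600; 0.45 with the slide, adjusted p = 0.0233), while its relatives Rara and Rarg were lower. Cyp26b1, which degrades retinoic acid, was well above background on the 9 arrays of the other groups and on 0 of 3 CCPB arrays. Taken from the DMSO mean, it was at least 2.38-fold lower with CCPB. That bound leaves out the spread of the DMSO arrays (-3.45, -4.64 and -3.20). The fitted difference, which uses CCPB signals not above background, was called (limma adjusted p = 0.000830). That call was lost with the slide (adjusted p = 0.109).

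Of 13 glucocorticoid receptor targets, 5 rose and 3 fell with CCPB (median 0.056). Tsc22d3, a target often used to read glucocorticoid signalling, fell by 0.59 log2 units and Sgk1 by 0.35, and these were the 2 called with the slide; Igfbp1 rose by 0.27. Of 18 other coregulators 1 rose and 3 fell, none with the slide (median -0.073), with Pnrc1 at 0.31, Psmc3ip at -0.20 and Cited2 at -0.39. Of 6 other nuclear receptors 2 rose, also with the slide (median 0.092): Rarb and Nr0b2, the repressor SHP that FXR induces; Thrb, the third by p, did not pass (-0.13, adjusted p = 0.106). Nr0b2 was the gene of these lists that was called with every compound, by 2.09 log2 units with triclosan (adjusted p = 0.000308), 1.80 with diclosan (adjusted p = 0.00131) and 2.25 with CCPB (adjusted p = 1.23e-05). No other gene of the 9 lists was called with triclosan or diclosan against DMSO.

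**Figure D5:**
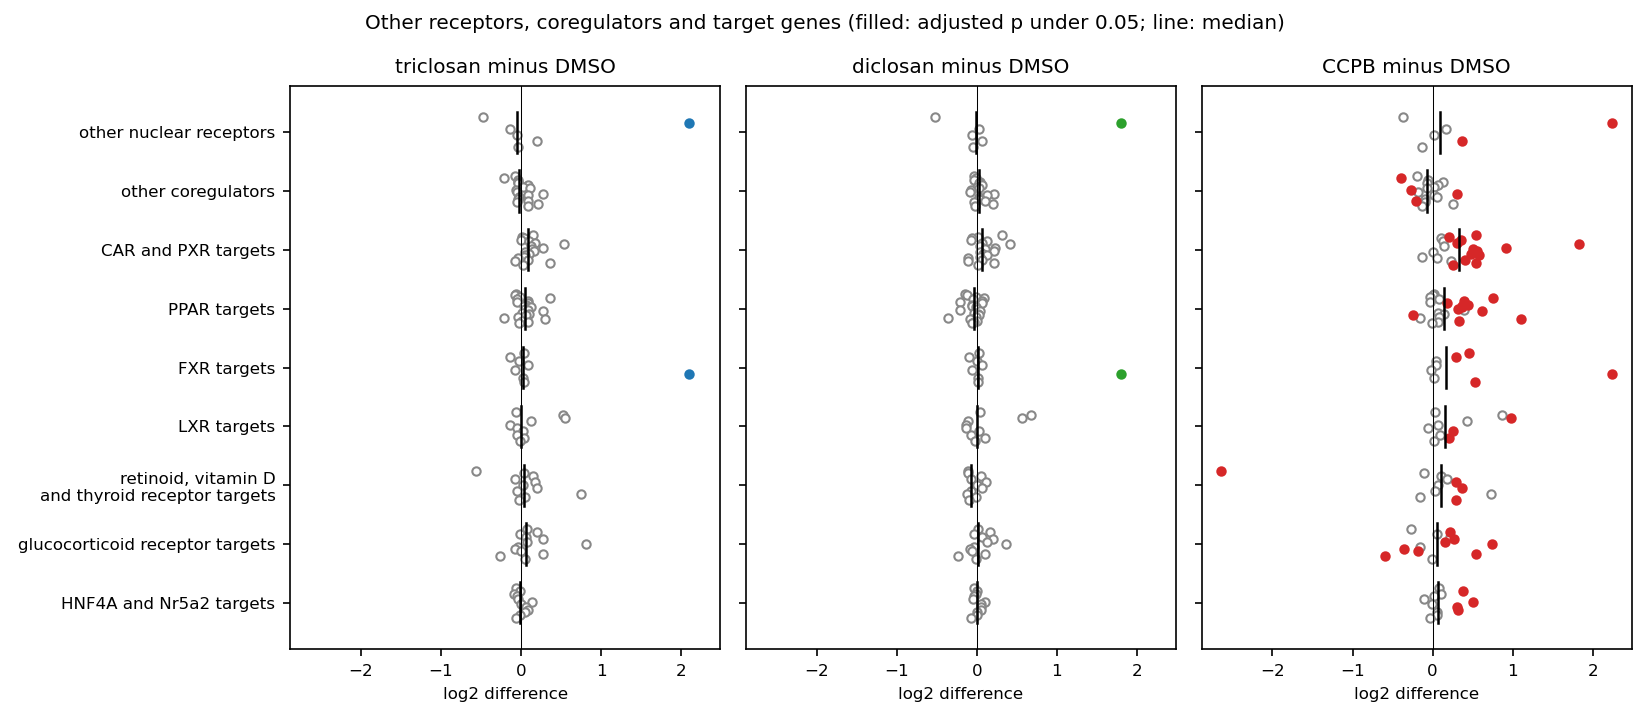
Each circle is a gene of 1 of the 9 lists (vertical axis) at its log2 difference from DMSO (horizontal axis), in a panel for each compound; filled circles have an adjusted p under 0.05 and the black lines are list medians. The filled circles of triclosan and diclosan are Nr0b2, drawn under other nuclear receptors and again under FXR targets, while in the CCPB panel the median of the CAR and PXR targets is 0.33. Cyp26b1 is drawn at -2.64 with CCPB, where its signal was not above background.

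Markers of other liver cell types were compared beside these values. The summed level of the 6 cholangiocyte markers was 1.49 to 1.58 log2 units with DMSO and 1.82 to 1.85 with CCPB, with 2 of them, Epcam (0.33) and Sox9 (0.28), called higher and Krt19, Spp1 and Cftr below background on all arrays. That of the 8 endothelial markers was 3.04 to 3.12 with DMSO and 3.26 to 3.31 with CCPB, with Vwf called higher (0.21) and Pecam1 and Lyve1 below background on all arrays. The 8 macrophage markers overlapped between the groups in their sum (-0.44 to -0.049 with DMSO, -0.11 to 0.084 with CCPB), with 0 called and Marco below background. The 8 stellate cell and fibroblast markers also overlapped (0.88 to 1.34 and 0.94 to 1.03), with Acta2 called higher (0.42) and Dcn and Lrat below background. The hepatocyte sum was 11.06 to 11.13 and 11.10 to 11.13, with 4 markers called higher and 1 lower. No marker of the other cell types was called with the slide as a block, and the part of any of these in the receptors' values was not tested. In such bulk RNA, fewer cells of a type and less RNA per cell cannot be told apart.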

How the data were processed

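The 12 Agilent scanner files hold each spot's processed signal intensity as deposited, which Agilent Feature Extraction 10.7.1.1 wrote, per the file headers, with flags for spots above background, saturated or non-uniform; the genome build is not given in the sources used here. The deposited value table holds signal scaled to each array's 75th percentile (column medians 0.048 to 0.055) and served as an alternative. Total RNA was labelled with Cy3, per the labels' protocols.

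Control and non-uniform spots (1 to 8 per array) were left out, spots of a probe averaged, and log2 signal minus the array's 75th percentile taken. A probe was kept where some group had it well above background on each of its 3 arrays, 24236 of 45598; 21229 probes had a symbol through RefSeq accessions and 24369 had none. The brightest kept probe stood for a gene. All 4 groups were fitted together in limma 3.58.1 (R 4.3.3), checked on simulated data, with 2-sided p-values adjusted by Benjamini-Hochberg over 20344 genes or transcripts. The simulated data held no slide effect, so that check does not cover calls where compound and slide cannot be told apart. The number of arrays limits the precision. Members and lists were chosen with earlier results of these data known. Full values are given for every member called in any comparison and for central receptors and coregulators whatever their result; from each other list at most 3 genes with the smallest p are named.

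Alternatives were blocks for slide, for replicate number and for the pair of them, normexp on the median and background signals (a mean signal was not used here), median centring, quantile normalization, filters on dim probes, the mean of probes, only the groups compared, 1 slide only, another threshold, and each array left out. Each further probe was tested on its own, an alternative chosen after seeing the data. Same-numbered arrays did not deviate together (correlations -0.165 to 0.118), so the numbers were not treated as pairs.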

Additional observations from a re-analysis of the deposited data

How the results depend on the processing

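Counts of members called in the comparisons with CCPB are given with the share of all genes called in the same setting, as a background. The 12 members called between CCPB and DMSO (28.3% of all genes) became 2 with the slide as a block (3.46%), 0 with the replicate block and slide together (1.47%), 5 with median centring (16.3%) and 7 without a filter on dim probes (7.19%), all of them among the 12. Leaving out 1 array gave 7 to 12, of which 7 to 11 were among the 12 (18.0% to 19.7% of all genes). The 7 between triclosan and CCPB (20.5%) became 0 (1.41%), 0 (0.059%), 2 (11.7%) and 3 (3.59%) under the same settings. Without 1 array they numbered 3 to 4, of which 3 to 4 were among the 7 (10.4% to 14.2% of all genes). The 8 between diclosan and CCPB (14.4%) became 3 (4.94%), 1 (2.79%), 1 (6.73%) and 3 (3.27%), then 3 with only the 2 groups compared (6.08%). The fit on slide 2 only holds 1 diclosan array, so its calls are not counted here. Without 1 array these calls numbered 3 to 8, of which 3 to 7 were among the 8 (8.12% to 26.8% of all genes). The highest count and share came without diclosan 3, where diclosan and CCPB share no slide. The replicate block alone gave 15 (27.2%), 8 (18.6%) and 7 (14.0%), of which 12, 6 and 7 were among the original calls. Rxrb between triclosan and CCPB was the only call to change sign, at -0.025 with the slide (adjusted p = 0.899). The cause of these changes was not tested. The other comparisons had 0 members called by limma in each alternative run. At an unadjusted p under 0.05 they had 4 (triclosan against DMSO, 11.6% of all genes), 5 (diclosan against DMSO, 10.6%) and 4 (triclosan against diclosan, 6.83%). With 3 arrays a group, the median half-width of a member's 95% interval was 0.136 log2 units. CCPB shares no slide with DMSO or with triclosan, so the slide's part in those differences rests on 3 diclosan arrays. Vdr, Nr2f1, Esr1 and Nr4a3 were too near background to compare.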
